A study of Mus musculus with 8 samples.

Results

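Long intergenic noncoding RNA (lincRNA) genes with a clear signal in mouse primordial germ cells are described here, 90 genes out of the 21444 genes to which a deposited transcript count could be assigned. A gene was included when the GENCODE M21 annotation of the GRCm38 genome types it as lincRNA, when it lies on an autosome, and when its counts sum to 200 or more over the 8 libraries. Each gene was represented by its transcript with the highest total. The imprinted genes H19, Meg3, Rian and Mirg were left out by name, and of these only H19 reached the minimum. A further 5 lincRNA genes that reached it lie outside the autosomes. The annotation holds 5209 autosomal lincRNA genes, and 845 of them had a count in at least 1 library. The 90 are the upper end of those 845. Genes without a deposited count cannot be called silent, because the annotation release used for counting is not known. The genes were selected on their count total over both groups, so their levels are given as a description.

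Primordial germ cells are the embryonic precursors of eggs and sperm. At the age sampled, E11.5, they have reached the genital ridge and are losing most of their DNA methylation. The 4 Control libraries came from Blimp1Cre;Prmt5flox/+ embryos and the 4 Prmt5 KO libraries from Blimp1Cre;Prmt5flox/flox embryos, all on a mixed C57BL/6 and 129 background. Cre was under the control of Blimp1, a gene that precursors of germ cells switch on, and the Control cells carried the same Cre with 1 floxed Prmt5 copy, so the comparison is of a heterozygous with a homozygous deletion. Prmt5 encodes an arginine methyltransferase that acts on histones, small nuclear ribonucleoproteins and Piwi proteins. Cells were sorted by their dPE_Oct4 GFP reporter, and 50 pg of RNA went into every library, by a protocol written for single cells, before SOLiD sequencing. Nothing in the labels tells whether the replicates are different embryos, so the p-values measure only how far these libraries spread, in part perhaps for technical reasons. In such bulk samples fewer cells of a type and less RNA per cell cannot be told apart.

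The libraries held 1811428 to 6549504 gene counts, with Control 2 and 3 the shallowest. Prmt5 itself was at 138 ± 40.6 CPM (counts scaled to a common library size; SD, n = 4) in Control and at 35.5 ± 6.49 in Prmt5 KO, a log2 fold change of -1.95 (edgeR quasi-likelihood test, Benjamini-Hochberg adjusted p = 0.0389). All 12 germ cell markers on a fixed list were counted, with a summed level of 3150 to 3800 CPM in Control and 3090 to 3820 CPM in Prmt5 KO. All 10 markers of gonadal and mesonephric somatic cells had counts, though Pax2 had only 2 and Tcf21 only 3 in all. In Control most of their sum was Mfge8, at 114 to 180 CPM there and 152 to 177 CPM in Prmt5 KO. The sum was 132 to 209 CPM in Control and 168 to 595 CPM in Prmt5 KO, the highest value being that of Prmt5 KO 1. There Acta2, a smooth muscle actin, was at 208 CPM against 2.71 to 7.13 CPM elsewhere, and Nr5a1, a gonadal transcription factor, at 14.9 CPM against 0.0 to 0.549 CPM. The sum of 5 endothelial markers was 279 to 360 CPM in Control and 296 to 395 CPM in Prmt5 KO, most of it Pecam1, which germ cells also express (283 ± 46.1 and 276 ± 46.2 CPM). Tek, an angiopoietin receptor gene on that list, was at 12.3 ± 11.2 CPM in Control and 52.3 ± 28.1 CPM in Prmt5 KO (log2 fold change 2.05, edgeR adjusted p = 0.409, DESeq2 adjusted p = 0.0439). Egfl7 was at 12.4 ± 6.87 and 5.43 ± 2.49 CPM and Cdh5 at 2.20 ± 2.40 and 0.699 ± 0.564 CPM. Kdr had only 3 counts in all, at 1.65 CPM in Control 3 and at 0 in every other library. The sum of the blood markers was 20.8 to 42.9 and 6.48 to 43.6 CPM, and the globin genes Hba-a1 and Hbb-bt were without a count under these names. Most of that sum was Csf1r (33.8 ± 9.42 and 23.7 ± 14.2 CPM), while Cd68 had only 30 counts in all and Ptprc 1. Prmt5 KO 4 and Prmt5 KO 1 stood apart from the other 6 libraries on the first and second dimension of a multidimensional scaling of all tested genes.

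A lincRNA is a long transcript from its own gene, with no recognised protein product, usually spliced and polyadenylated. Some lincRNAs act in the nucleus, others bind microRNAs or proteins, and several serve mainly as hosts whose introns or exons are processed into small nucleolar RNAs (snoRNAs) or microRNAs. As a class they are expressed at lower levels and in fewer cell types than mRNAs. The name says that the gene lies between protein-coding genes, and this was checked first because it bears on every value below.

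Annotated small RNA genes, such as those of snoRNAs and microRNAs, were left out when overlaps were scored. Of the 90 genes, 49 (54.4%) had a counted transcript whose exons share bases with an exon of another annotated gene, and for 47 of them the other gene is on the opposite strand. In 22 (24.4%) such exons cover 50% or more of the transcript. The same held less widely for the 755 other autosomal lincRNA genes with a count, of which 193 (25.6%) overlapped and 52 (6.89%) did so over 50% or more. Those 49 genes carried 67.4% of all lincRNA counts of the group, while the 36 genes with neither an overlap nor a near-identical copy elsewhere carried 30.3%. No source used here gives whether the counting used the strand of the read. Without it, reads of an overlapping gene and of its lincRNA cannot be told apart. The label intergenic thus holds as a biotype for all 90, and as a position free of other exons, small RNA genes aside, for 41. Among these 41 are Mir17hg, Snhg12 and Pvt1, which have annotated small RNA genes within their exons.

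The ends of the transcripts differ in the same way. A polyadenylated RNA usually carries the hexamer AATAAA or ATTAAA shortly before its 3′ end, where the cleavage machinery binds. Of the 41 genes with no overlap, 24 (58.5%) had 1 of these hexamers in the last 50 bases of the counted transcript, as did 16 of 27 (59.3%) with an overlap under 50%. Only 3 of the 22 with a larger overlap (13.6%) had it. The reverse complements TTTATT or TTTAAT in the first 50 bases, which a transcript drawn on the opposite strand of a polyadenylated RNA would show, occurred in 2 (4.88%), 5 (18.5%) and 9 (40.9%) of these groups. For comparison, the sense signal was in 51.9% of the other counted lincRNA genes and in 75.7% of 16369 protein-coding genes, and the reversed one in 4.9% and 0.984%. A match is a description of letters, not a mapped site.

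Some annotated 3′ ends are shown to make this visible. Whether the RNAs in these cells, Malat1 among them, end there or are polyadenylated was not measured. The last 40 bases of the annotated transcripts of 6 lincRNAs with a known function or name are given 5′ to 3′, with the signal in capitals (GENCODE M21, GRCm38). All 6 carry it, against 58.5% of the lincRNAs with no overlap and 59.3% with an overlap under 50%.
Lncenc1: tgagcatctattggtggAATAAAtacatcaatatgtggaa
Platr4: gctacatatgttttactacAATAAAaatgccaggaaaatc
Mir17hg: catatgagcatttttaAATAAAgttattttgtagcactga
Snhg12: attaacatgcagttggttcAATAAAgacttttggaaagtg
1700020I14Rik: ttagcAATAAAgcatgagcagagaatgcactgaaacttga
Malat1: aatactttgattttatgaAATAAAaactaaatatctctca

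The first 30 bases of 4 abundant overlapping lincRNAs that carry the reversed signal follow, with the signal in capitals. Other abundant overlapping ones, such as Gm26882 and Gm26762, lack it in their first 50 bases.
Gm17275: agTTTAATgtatTTTAATagcaaacttaca
Gm26825: ggtgccaatttaaatagtTTTATTattcca
Gm26718: aagtaaaatTTTATTacatacttattccca
Gm26819: aaaactttggacTTTATTatgtctagttga

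**Figure D1:**
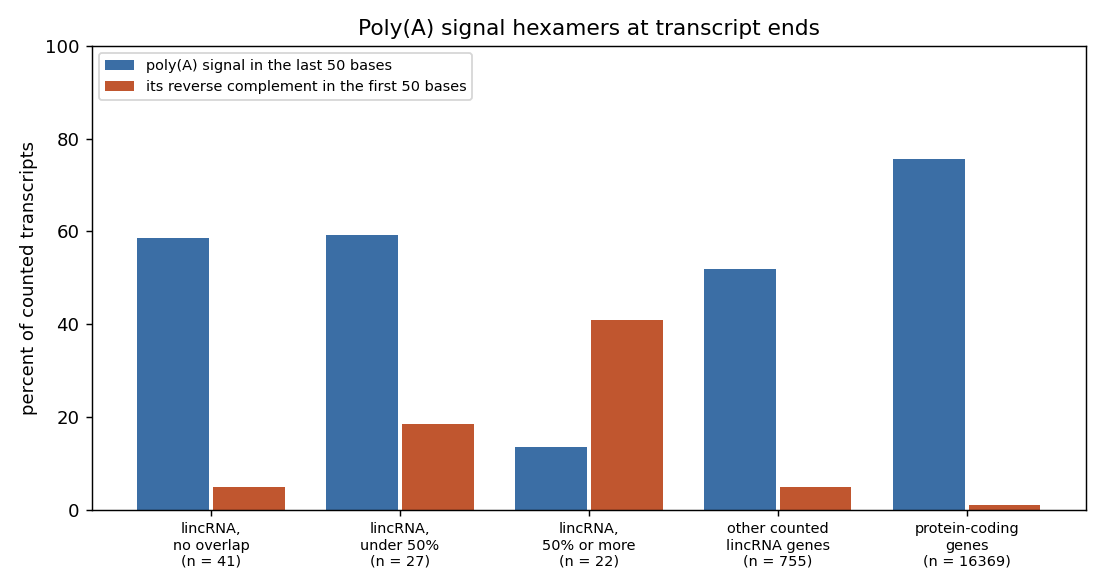
Percent of counted transcripts (y axis) with a poly(A) signal hexamer in the last 50 bases (blue) or its reverse complement in the first 50 bases (orange), for the lincRNA genes by the share of their bases in exons of other genes and for 2 comparison sets. The lincRNAs with an overlap of 50% or more have the signal in 13.6% and its reverse in 40.9%, and those with none in 58.5% and 4.88%.

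The 90 genes took a mean share of 0.249% (SD 0.0112, n = 4) of all gene counts in Control. In Prmt5 KO their share was 0.242% (SD 0.0153, n = 4), with single libraries between 0.221% and 0.264% and the groups overlapping. With all transcripts of a gene summed the shares were 0.128% and 0.131%. Every gene had at least 1 count in every library, and 57 had 10 or more in each. Control means ran from 1.04 to 238 CPM with a median of 13.8 CPM, against a median of 28.2 CPM over all genes tested. Per kilobase of transcript the median was 7.69 CPM in Control, against 10.2 CPM for the 10349 protein-coding genes tested, and 35 of the lincRNAs lay above that protein-coding median. The lincRNAs had to reach 200 counts, while the genes tested had only to pass a filter on low counts, so these medians rest on unlike minimums. Values per kilobase also assume even read coverage along transcripts, which was not tested. The counted transcripts were 430 to 8300 bases long, and 46 of them have 2 exons, 3 have 1 exon and 41 have 3 or more. The 12 genes most abundant in Control held 44.8% of the counts and the first 2 of them 16.3%.

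The most abundant was Gm26825, on chromosome 5 at chr5:5781530-5783636. Its level was 234, 211, 304 and 203 CPM in Control 1 to 4 and 30.6, 209, 166 and 234 CPM in Prmt5 KO 1 to 4. Prmt5 KO 1 alone was far below the others. The mean was 238 ± 45.8 CPM in Control and 160 ± 90.8 CPM in Prmt5 KO, which did not pass the test (log2 fold change -0.57 ± 0.425, SE; edgeR adjusted p = 0.776), and without Prmt5 KO 1 the log2 fold change was -0.23. Gm26825 lies over the processed pseudogene Gm15459, whose exons cover 91.8% of it on the opposite strand and which had 7159 counts in all against 6881. Both resemble Hspa8, which encodes the constitutive heat shock protein Hsc70 and is among the strongly expressed genes of these cells at 1470 ± 136 CPM in Control and 1510 ± 214 CPM in Prmt5 KO. The longest match between an Hspa8 transcript and the reverse complement of Gm26825 was 1940 bases at 99.6% identity, and 1528 of the 1882 windows of 60 bases in the Hspa8 coding sequence (81.2%) recur in it letter for letter. The counts of Gm26825 are therefore uncertain. Bases 115 to 174 of the Hspa8 coding sequence are shown, in the direction of Hspa8, as an example of such a shared stretch. Gm26825 carries the reverse complement, so a short read from it fits both genes where the strand is ignored.
Hspa8 and Gm26825: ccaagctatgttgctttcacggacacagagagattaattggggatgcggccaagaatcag

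Gm17275, at chr1:180802568-180809483, came next. It was at 175, 254, 220 and 217 CPM in Control and at 230, 253, 209 and 210 CPM in Prmt5 KO. The groups overlapped throughout, with a log2 fold change of 0.06 ± 0.161. It shares 638 bases (25%) with H3f3a on the opposite strand, which encodes the replication-independent histone H3.3. The total of the counted H3f3a transcript was 7924 against 8141 for Gm17275, and their ratio stayed between 0.92 and 1.38 in the 8 libraries. Gm26718 had a similar partner: all of its bases (100%) lie in exons of Pgam5, a mitochondrial phosphatase, with totals of 2759 and 2580. Gm26819 shares 81.3% with Med10, a subunit of the Mediator complex, and their totals were 2377 and 2302. For these 3 pairs the lincRNA and the mRNA transcript had nearly the same number of counts. In contrast, Gm26882 lies over Morf4l1, a chromatin protein gene, with 97.5% of its bases and had 3202 counts against 31027.

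The third gene in the order, Gm26717 (chr18:32153476-32160427), had no overlap and no near copy. It was at 77.8, 94.2, 94.4 and 83.0 CPM in Control and at 79.2, 76.2, 85.1 and 103 CPM in Prmt5 KO. Its Control mean of 87.3 ± 8.30 CPM equalled that of Gm26882 (87.3 ± 5.21), and Gm26530 (86.6 ± 28.0) and Gm26762 (86.2 ± 25.7) lay within their spread. Gm26718 (79.7 ± 14.9), Lncenc1 (77.2 ± 18.9) and Mir17hg (76.6 ± 22.6) followed, again closer to each other than their SD. Ranks 3 to 9 are thus not separated by these libraries, while in Control the first 2 stand clear of them. Per kilobase Gm26717 kept its place with 61.6 ± 5.85 CPM, behind Gm26825 (117 ± 22.6) and Gm17275 (84.8 ± 12.8).

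**Figure D2:**
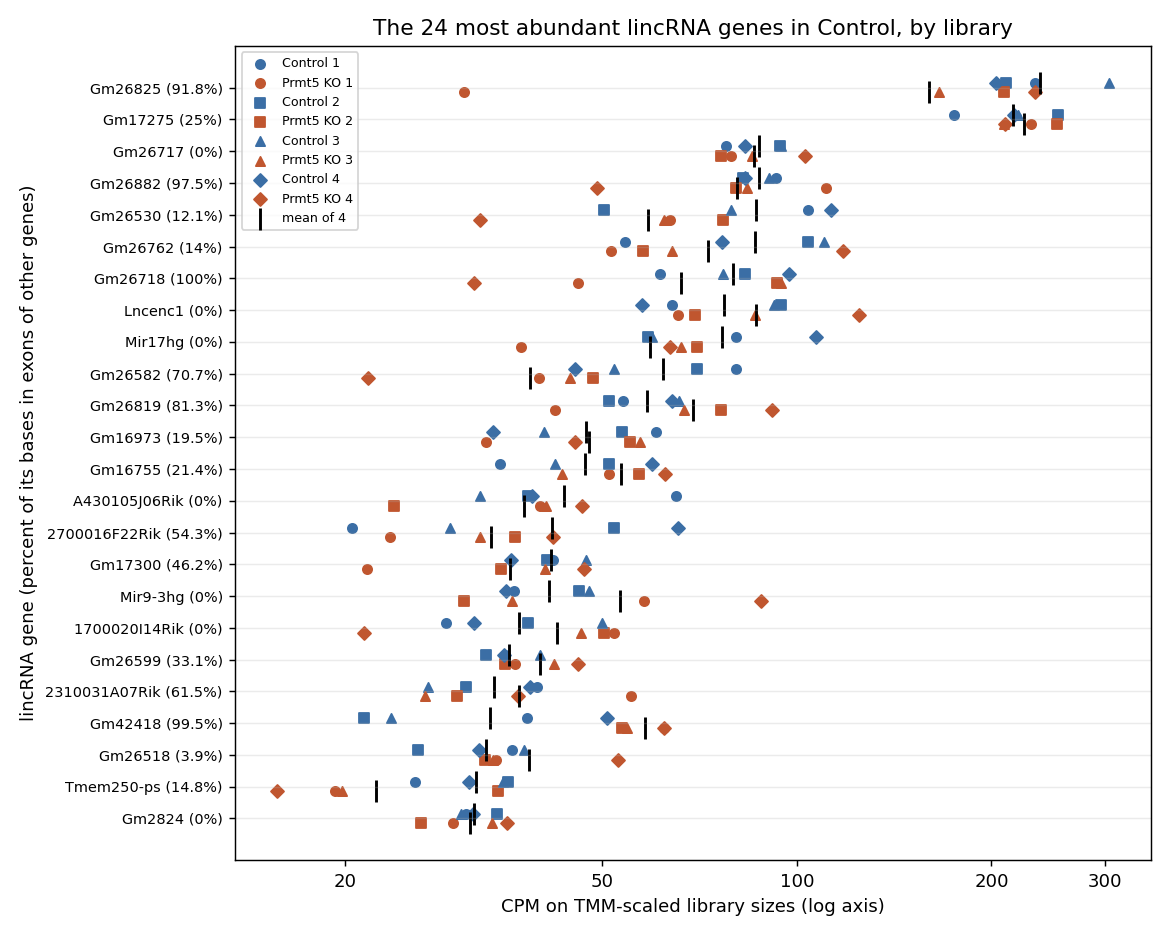
CPM on a log axis for the 24 lincRNA genes with the highest Control mean, with 1 point per library (blue Control, orange Prmt5 KO, marker shape by library number) and black bars at the mean of 4. The percent beside each name is the share of its bases in exons of other genes; Gm26825 and Gm17275 stand clear of the rest, and the 30.6 CPM of Gm26825 in Prmt5 KO 1 lies far to the left of its other values.

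The comparison of Prmt5 KO with Control asked which lincRNAs respond when the methyltransferase is lost from germ cells. No lincRNA passed an adjusted p of 0.05 in the edgeR quasi-likelihood test, out of 88 that passed the filter on low counts. Over all 10990 genes tested 3 passed, which is 0.0273%. At an unadjusted p under 0.05 there were 2 lincRNAs (2.27%), Gm42418 and 4930558J18Rik, against 8.15% of all genes. In 1 lincRNA, Gm42418, all Prmt5 KO libraries lay above all Control libraries, where 2.63% of all genes did so. The other, 4930558J18Rik, had all Prmt5 KO libraries below all Control libraries, as 2.27% of all genes did. DESeq2 called 1 of the 84 to which it gave an adjusted p, 4930558J18Rik, and 0.963% of all genes with one.

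The log2 fold changes ran from -3.19 to 1.33, with 53 above and 35 below 0. Their median was 0.15 against 0.03 over all genes tested. For 61 of the 88 the change was under 0.5 in size, and for 8 (9.09%) it was over 1, against 11.6% of all genes. The median standard error was 0.538 for the lincRNAs and 0.439 over all genes. The medians by exon overlap were alike: 0.16 with none, 0.16 with under 50% and 0.14 with 50% or more.

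**Figure D3:**
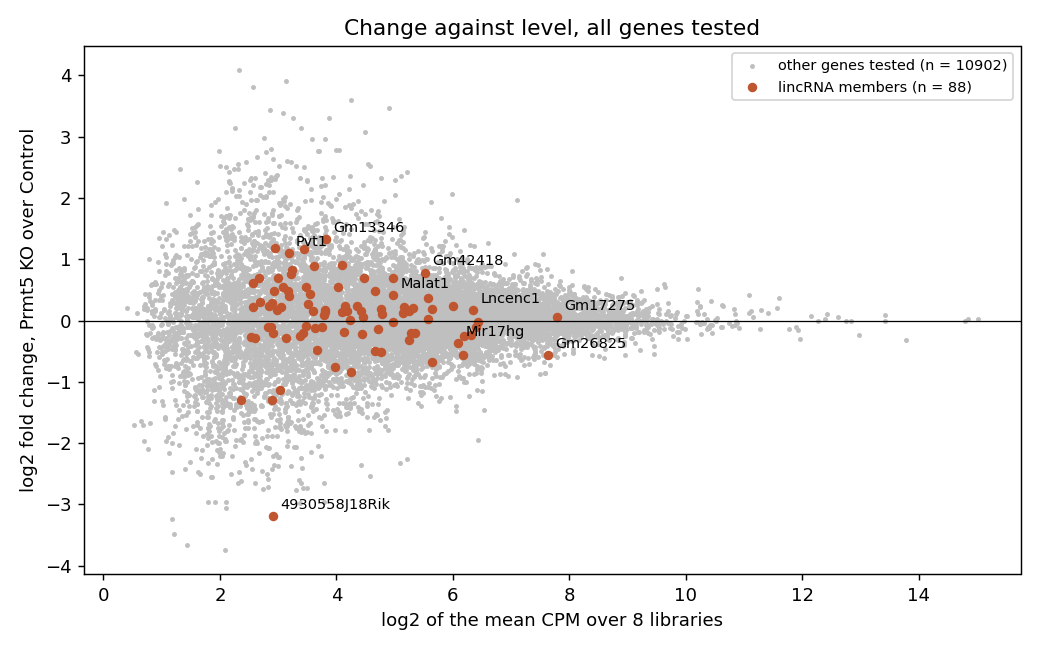
Log2 fold change of Prmt5 KO over Control (y axis) against the log2 of the mean CPM over 8 libraries (x axis) for the 88 lincRNAs tested (orange) and the other genes tested (grey). The lincRNAs lie within the grey cloud at low to middle levels, with 4930558J18Rik at -3.19 as the lowest of them.

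The lincRNA with the smallest p was 4930558J18Rik, a 4-exon gene with no recognised function, at chr1:57359222-57377544 on the minus strand. It was at 11, 32.1, 6.03 and 5.10 CPM in Control and at 2.53, 1.16, 1.79 and 0.249 CPM in Prmt5 KO, from counts of 65, 72, 11 and 29 against 15, 6, 12 and 1. All 4 Control values were higher than all 4 Prmt5 KO values, and Control 2 was the highest. The mean was 13.6 ± 12.7 CPM in Control and 1.43 ± 0.968 CPM in Prmt5 KO, with a log2 fold change of -3.19 ± 0.855 (SE), an unadjusted p of 0.0025 and an adjusted p of 0.296 in edgeR. DESeq2 gave -3.21 with an adjusted p of 0.0188. That call ended without Control 2 (-2.34, DESeq2 adjusted p = 0.371) and without Control 1 (-3.30, adjusted p = 0.071), and held without each of the other 6 libraries. Its total of 211, just inside the minimum of 200, came from 177 counts in Control and 34 in Prmt5 KO. It was therefore selected mainly through the group where it is high, which favours a difference in this direction, and the call is not support for a change. Its transcript overlaps no exon of another gene, small RNA genes left aside, has no near copy and ends in a poly(A) signal.

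Its first exon starts 76 bases from 1700066M21Rik, a protein-coding gene on the other strand. That neighbour was at 16.7, 2.23, 3.29 and 6.86 CPM in Control and at 0.675, 2.33, 10.7 and 1.99 CPM in Prmt5 KO. Its groups overlapped, with a log2 fold change of -0.90 ± 0.896 and an edgeR adjusted p of 0.84. The start region of the lincRNA is shown because this gene had the largest difference: 300 bases at chr1:57377495-57377794 of GRCm38.p6 from RefSeq, on the minus strand, with each CG in capitals.
4930558J18Rik promoter: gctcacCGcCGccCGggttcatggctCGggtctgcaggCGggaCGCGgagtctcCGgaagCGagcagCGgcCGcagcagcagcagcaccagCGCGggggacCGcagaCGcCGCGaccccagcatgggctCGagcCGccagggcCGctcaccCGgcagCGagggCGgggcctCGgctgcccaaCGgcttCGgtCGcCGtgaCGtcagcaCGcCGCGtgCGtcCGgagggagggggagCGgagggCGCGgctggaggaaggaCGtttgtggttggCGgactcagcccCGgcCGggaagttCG

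The window runs from within the neighbour to within the lincRNA: its first 175 bases lie in 1700066M21Rik, the next 75 between the genes and the last 50 in 4930558J18Rik. It holds 42 CG dinucleotides, the site at which vertebrate DNA is methylated, of which 24 start in the first stretch, 13 between the genes and 5 in the last. Of 32851 promoters in the RefSeq table, 3.03% hold as many or more, and the median of all of them is 7. Of the 90 lincRNAs, 34 matched that table by symbol, with a median of 10.5 and a range of 0 to 42, so this promoter has the most CG among those matched. For only 22 of the 34 does the RefSeq start lie within 100 bases of the counted transcript, and their median was 16.5. No methylation was measured in these libraries.

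Gm42418 differed in the other direction. It was at 38.2, 21.4, 23.6 and 50.8 CPM in Control and at 62.3, 53.7, 54.6 and 62.3 CPM in Prmt5 KO, so that the groups did not overlap. The mean was 33.5 ± 13.7 and 58.2 ± 4.73 CPM, with a log2 fold change of 0.78 ± 0.325, an unadjusted p of 0.0314 and an adjusted p of 0.563 in edgeR. The position of this gene limits what its counts are: 99.5% of it (chr17:39846958-39848788) lies over the ribosomal RNA gene CT010467.1 on the opposite strand, and the RefSeq gene table lists Gm42418 as a synonym of the ribosomal RNA pseudogene Rn18s-rs5. Reads of ribosomal RNA and of this lincRNA cannot be told apart there. Without Gm42418, 1 of the lincRNAs has an unadjusted p under 0.05.

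By the fixed rule, the other lincRNAs named for the smallest p-values among those that were higher in Prmt5 KO were Gm26735, Gm26880, Gm12116, Gm13346 and Gm14230. None passed the adjusted threshold, with edgeR adjusted p-values from 0.632 to 0.726. Gm26735 was at 19.4, 20.5, 24.1 and 31.0 CPM in Control and at 42.4, 30.4, 31.8 and 50.3 CPM in Prmt5 KO, where Control 4 reached above the lowest Prmt5 KO value, and its log2 fold change was 0.70 ± 0.342. It lies over Sox4 with 98.8% of its bases; Sox4, a transcription factor gene, had a log2 fold change of 0.43. Gm26880, at 7.94, 8.48, 2.74 and 7.56 CPM in Control and 5.74, 21.5, 18.7 and 15 CPM in Prmt5 KO, had a log2 fold change of 1.17 ± 0.603. It has near copies in 7 other genes. Gm14230 differed by 0.89 ± 0.540 and Gm12116 by 1.19 ± 0.673, both with overlapping groups. The value of Gm13346 rests on 1 library: it was at 61.3 CPM in Prmt5 KO 4 and between 5.24 and 11.5 CPM in the other 7, and the log2 fold change of 1.33 became -0.26 without that library.

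On the lower side the rule named Gm26582, Gm26530, 1300002E11Rik, Gm26776 and 1110002J07Rik, with edgeR adjusted p-values from 0.618 to 0.756. Gm26582 was at 80.5, 70.1, 52.1 and 45.4 CPM in Control and at 39.9, 48.4, 44.6 and 21.7 CPM in Prmt5 KO. Only Prmt5 KO 2 reached above the lowest Control value, and the log2 fold change was -0.68 ± 0.323. G3bp2, a stress granule protein gene that covers 65.4% of it on the other strand, had -0.54. Gm26530, which shares only 12.1% of its bases with Rtca, had -0.56 ± 0.320, and Rtca itself had -0.56. Gm26776, over Ccdc3, had -1.30 ± 0.788 and Ccdc3 -1.35. The value of 1300002E11Rik followed Control 1, at 18.6 CPM against 1.79 to 5.45 CPM in the 7 other libraries, and its log2 fold change of -1.29 became -0.24 without it. The last, 1110002J07Rik, has no overlap and was at 19.8 ± 9.37 CPM in Control and 11.6 ± 4.61 CPM in Prmt5 KO (-0.76 ± 0.525).

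These pairs follow a wider pattern. For 19 lincRNAs that share 50% or more of their bases with 1 tested gene, the log2 fold changes of lincRNA and partner had the same sign in 15, and the median difference between them was 0.24. For 20 with a smaller overlap the sign was shared in 14, with a median difference of 0.18. For 30 lincRNAs with no exon overlap, set beside the nearest protein-coding gene at a median distance of 8072.5 bases, the sign was shared in 14 and the median difference was 0.59. Across the pairs Pearson's r was 0.74, 0.54 and 0.22. All pairs come from the same 8 libraries and are not independent, so these are descriptions, and shared reads and shared regulation cannot be told apart where the exons overlap.

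**Figure D4:**
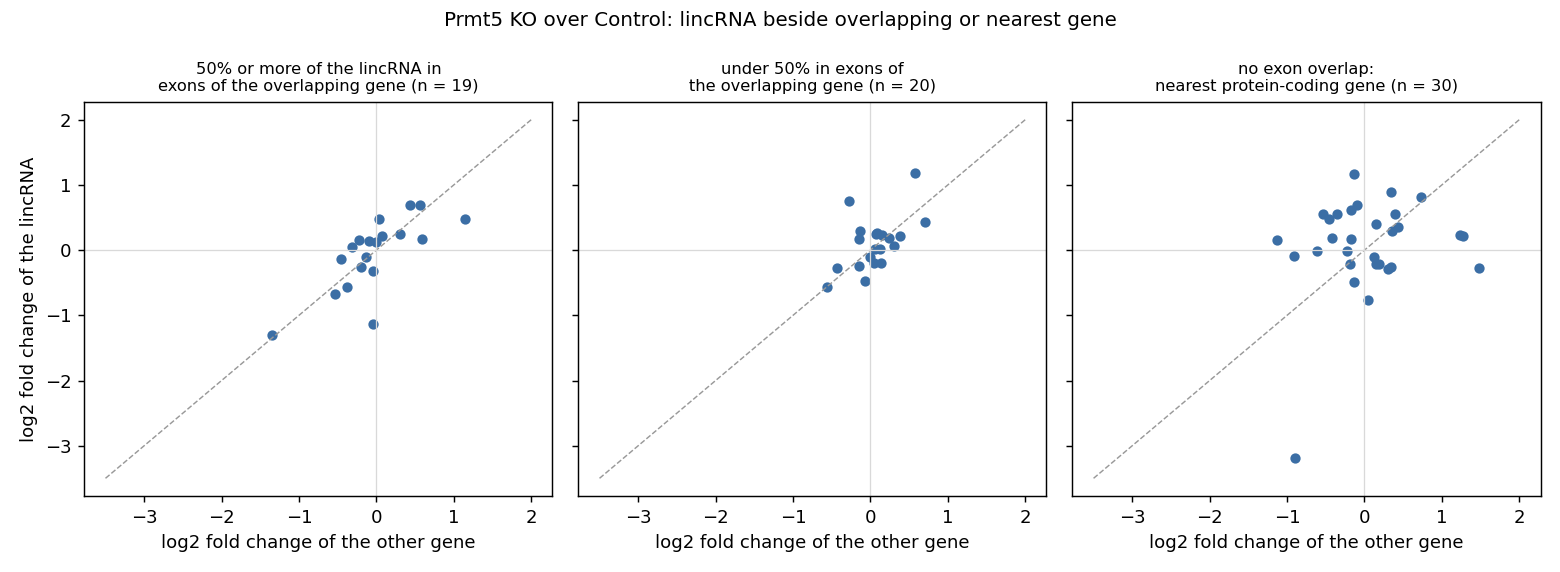
Log2 fold change of each lincRNA (y axis) against that of the gene it overlaps (left and middle panels) or of its nearest protein-coding gene (right panel), with the line of equality dashed. The 19 pairs with a large overlap follow the line, with Gm26899 at -1.14 the farthest below it, while the 30 pairs without overlap scatter around it.

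The lincRNAs with a known role were taken from lists of names. On the 5 role lists with tested genes edgeR and DESeq2 both called 0; at an unadjusted edgeR p under 0.05 there were 1 of the general lincRNAs (Firre, log2 fold change -1.46) and 1 of the p53 list (Ptprv, 1.84), neither a member, and 0 on the other 3 lists. Of 34 names linked to pluripotent cells, 24 had a count, 9 passed the filter and 0 were called, and 2 are among the 90, Lncenc1 and Platr4. Lncenc1, a lincRNA of naive embryonic stem cells, was at 64.2, 94.6, 92.2 and 57.7 CPM in Control and at 65.5, 69.6, 86.2 and 125 CPM in Prmt5 KO. It ranked 8 in Control, with overlapping groups and a log2 fold change of 0.17 ± 0.275 that turned to -0.06 without Prmt5 KO 4. Platr4 varied far more, at 27.6, 17, 5.49 and 2.29 CPM in Control and at 31.1, 10.3, 20.2 and 15.7 CPM in Prmt5 KO (0.55 ± 0.682). Its spread in Control, a coefficient of variation of 88.2%, compares with 24.5% for Lncenc1.

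Of 15 microRNA host genes, 6 had a count, 2 were tested and 0 were called, and both tested ones are members: Mir17hg and Mir9-3hg. Mir17hg at chr14:115042879-115046727 is the primary transcript of the miR-17 to miR-92 cluster, which promotes proliferation and survival of many embryonic cells. In the counted transcript all 6 precursors lie within an exon. Mir17hg was at 80.6, 58.9, 59.8 and 107 CPM in Control and at 37.5, 70.2, 66.1 and 63.6 CPM in Prmt5 KO. The lowest value was again in Prmt5 KO 1 and the groups overlapped, with a log2 fold change of -0.37 ± 0.290. Only the host RNA was counted, and the mature microRNAs were not measured. Their sequences are given to show what this host yields, with the seed (bases 2 to 8, which pair with target mRNAs) in capitals, from RefSeq (GRCm38.p6).
miR-17-5p: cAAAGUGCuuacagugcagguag
miR-20a-5p: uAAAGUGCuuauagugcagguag
miR-18a-5p: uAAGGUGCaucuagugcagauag
miR-19a-3p: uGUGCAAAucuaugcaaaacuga
miR-19b-3p: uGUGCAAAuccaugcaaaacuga
miR-92a-3p: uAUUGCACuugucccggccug

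The 6 microRNAs fall into 4 seed groups. miR-17-5p and miR-20a-5p share AAAGUGC, miR-19a-3p and miR-19b-3p share GUGCAAA, and miR-18a-5p and miR-92a-3p each have their own. Mir9-3hg hosts a copy of miR-9, best known from the developing brain, in an intron of the counted transcript. It was at 36.5, 46.0, 47.7 and 35.5 CPM in Control and at 58.1, 30.6, 36.3 and 88.0 CPM in Prmt5 KO. The high values were those of Prmt5 KO 1 and 4, and the log2 fold change of 0.36 ± 0.353 became -0.30 without these libraries.
miR-9-5p: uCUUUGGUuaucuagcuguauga

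Of 21 snoRNA host genes, 13 had a count, 12 were tested and 0 were called; their median log2 fold change was 0.22. Of the tested hosts 6 are typed as processed transcripts and 5 as lincRNA in the annotation, and only Snhg12 and Epb41l4aos are members. Snhg12 (chr4:132308623-132311024) was at 18.4, 23.7, 19.2 and 23.7 CPM in Control and at 20.6, 36.6, 24.4 and 36.9 CPM in Prmt5 KO. Prmt5 KO 2, 3 and 4 were above all Control libraries and Prmt5 KO 1 was not, with a log2 fold change of 0.48 ± 0.369. Its locus holds Snora16a, Snora44, Snora61 and Snord99, which guide chemical modification of ribosomal RNA, and the last pair lies within exons of the counted transcript. Snord99 (chr4:132310691-132310764) is shown as an example of this cargo, with its C box TGATGA and D box CTGA in capitals.
Snord99: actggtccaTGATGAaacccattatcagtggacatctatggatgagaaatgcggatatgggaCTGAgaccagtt

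Epb41l4aos, the shortest of the 90 with 430 bases, was at 6.88 ± 2.75 CPM in Control and 10.2 ± 3.02 CPM in Prmt5 KO (log2 fold change 0.55 ± 0.588). A host found by position rather than from the list, 2700038G22Rik, carries Snord93 in an intron. It was at 8.91 ± 5.59 CPM in Control and 13.4 ± 6.99 CPM in Prmt5 KO (0.55 ± 0.634). None of these hosts differed beyond the spread of its libraries.

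Among 11 names of nuclear and other general lincRNAs, 5 had a count under the listed name, 3 were tested and 0 were called. Malat1 alone is a member under its listed name. Cyrano is also listed but not among these 5, because its counts stand under the name 1700020I14Rik. Malat1, an abundant RNA of nuclear speckles in most cell types, ranked 27 of the 90 by Control CPM and 67 per kilobase. It was at 24.2, 20.1, 38.9 and 25.2 CPM in Control and 75.8, 27.7, 20.8 and 18.9 CPM in Prmt5 KO. Prmt5 KO 1 was the highest by far; its log2 fold change of 0.41 ± 0.469 became -0.26 without that library. Per kilobase Malat1 stood at 3.88 ± 1.17 CPM in Control, below the lincRNA median of 7.69. Dividing by its full 6983 bases assumes even read coverage, which was not tested, so its rank per kilobase is uncertain. The member 1700020I14Rik, known as Cyrano, is a conserved lincRNA with a site for miR-7. It is the longest counted transcript of the group at 8300 bases and was at 28.7, 38.4, 49.9 and 31.7 CPM in Control and 52.2, 50.4, 46.4 and 21.4 CPM in Prmt5 KO. Its groups overlapped, with a log2 fold change of 0.21 ± 0.352.

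Of 11 names tied to p53 and DNA damage, 7 had a count, 4 were tested and 0 were called, and Pvt1 is the member. Pvt1 lies 47612 bases from Myc on the same strand, a neighbourhood whose long transcript includes p53-responsive forms, and had 3.38, 2.23, 0.549 and 16.4 CPM in Control and 23.8, 9.30, 8.04 and 8.97 CPM in Prmt5 KO. Control 4 lay above 3 of the Prmt5 KO libraries, so the groups overlapped. The log2 fold change was 1.10 ± 0.833 (edgeR adjusted p = 0.787), and it ranged from 0.58 without Prmt5 KO 1 to 2.52 without Control 4. Protein-coding p53 targets, as a reference, summed to 437 to 515 CPM in Control and 1060 to 1140 CPM in Prmt5 KO, and 2 of 11 were called higher by edgeR and 8 of 11 by DESeq2. Of 22 developmental lincRNA names, such as those of the Hox clusters, 8 had a count and none passed the filter; their summed level was 1.35 to 6.03 CPM in Control and 0.844 to 11.2 CPM in Prmt5 KO.

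**Figure D5:**
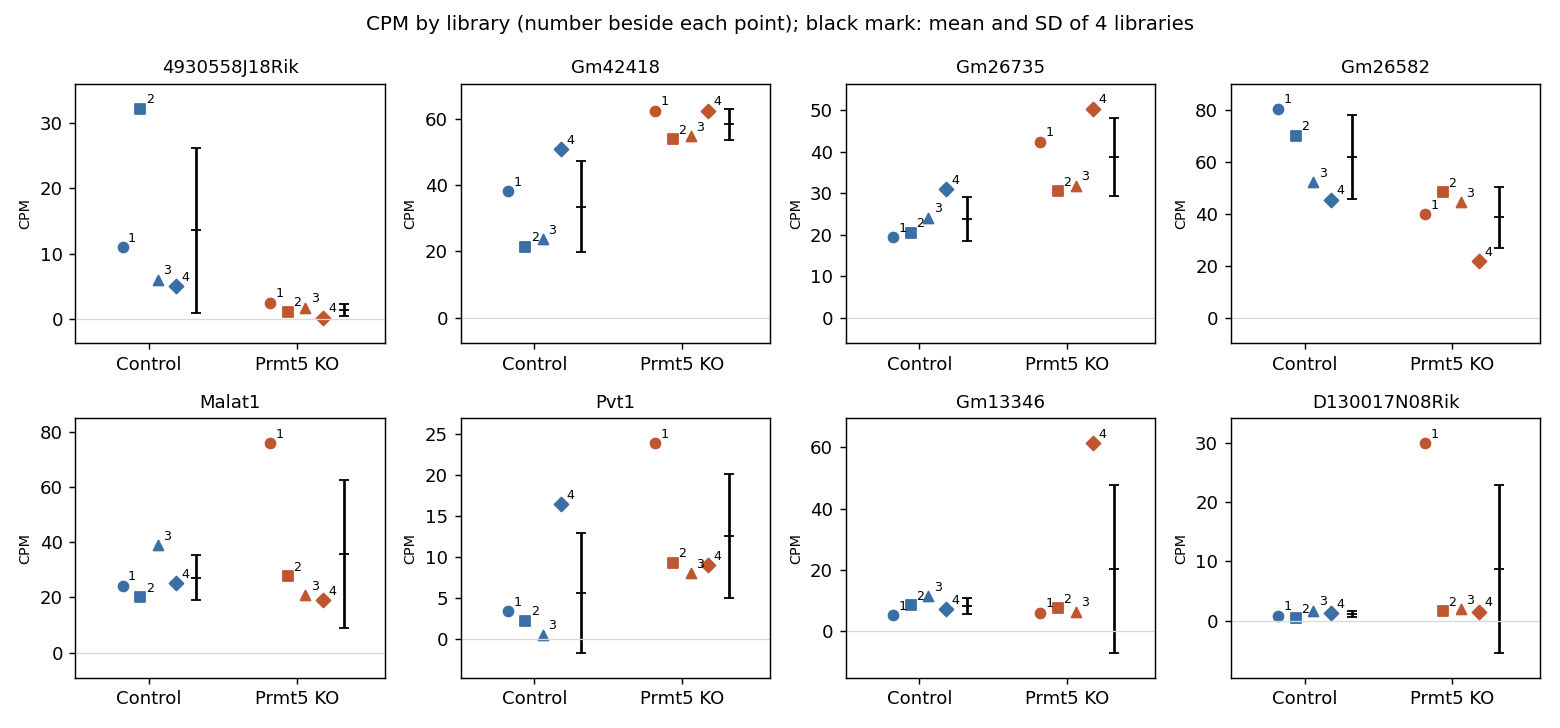
CPM of 8 lincRNAs in each library (points numbered by replicate, blue Control and orange Prmt5 KO), with the mean and SD of 4 libraries in black; each panel has its own y axis. The groups do not overlap for 4930558J18Rik and Gm42418, while Malat1, Pvt1 and D130017N08Rik are highest in Prmt5 KO 1 and Gm13346 in Prmt5 KO 4.

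Single libraries weighed on many of these values. The median coefficient of variation of the 90 genes was 35.0% in Control and 45.0% in Prmt5 KO. Prmt5 KO 4 held the highest value for 28 genes and the lowest for 17, and Prmt5 KO 1 the highest for 19 and the lowest for 13, while Prmt5 KO 3 held the highest for 5 and the lowest for 3. In 5 genes 1 library held over 50% of the counts. Of these, Gm13346 (Prmt5 KO 4, 246 of 476 counts), 1300002E11Rik (Control 1, 110 of 219) and 9430098F02Rik (Prmt5 KO 2, 101 of 200) were tested, and the other 2 did not pass the filter. D130017N08Rik was at 29.9 CPM in Prmt5 KO 1 and between 0.446 and 1.93 CPM in the other 7. Prmt5 KO 1 is the library with the raised somatic markers, whose part in this value, and in those of Malat1 and Pvt1, was not tested. Likewise 4930480K23Rik was at 23.7 CPM in Control 1, 5.80 CPM in Prmt5 KO 3 and 0.446 to 1.76 CPM in the others.

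The minimum of 200 counts cut through a continuous range. Just inside it were 9430098F02Rik with 200, 4930480K23Rik with 208 and 4930558J18Rik with 211. Just outside were the snoRNA host Snhg18 with 192, 2810429I04Rik with 189 and E430024I08Rik with 186. Of these, 9430098F02Rik lies entirely (100%) within exons of Ppp2ca, a phosphatase subunit gene with 14622 counts.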

How the data were processed

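The 8 deposited tables hold raw counts per annotated transcript, made by the authors. Reads were placed on GRCm38 (mm10), per the submitters' processing notes; no source used here names the aligner, the counter or its strand setting. Of 66262 listed transcripts, 64258 (97.0%) matched GENCODE M21, and the unmatched ones held 1.75% to 1.90% of the counts. Genes were tested with edgeR 4.0.16 in R 4.3.3 (TMM scaling, filterByExpr with a minimum count of 10 and a minimum total of 15, robust quasi-likelihood test, Benjamini-Hochberg adjustment over all 10990 genes); SE is the log2 fold change divided by the square root of F. The fit was checked on simulated counts. CPM uses TMM-scaled library sizes, and fold changes are on the log2 scale. DESeq2 1.42.0 and limma 3.58.1 served as alternatives. An overlap is any exon base that the counted transcript shares with another gene, with small RNA genes (snoRNA, microRNA, small nuclear and miscellaneous RNA types) left out. Near copies are blastn 2.17.0 matches of 200 bases or more at 95% identity or more in transcripts of other genes. The common dispersion corresponds to a biological coefficient of variation of 0.488, so small changes could not be detected at this depth and number of libraries. Large fold changes could go uncalled too: 4930558J18Rik, at a log2 fold change of -3.19 ± 0.855 (SE), had an edgeR adjusted p of 0.296. A lincRNA that was not called is therefore not shown to be unchanged.

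Named genes are the 12 with the highest Control mean, the 6 with the smallest p in each direction, members of the role lists, hosts of snoRNAs or microRNAs, and the lowest totals inside and outside the minimum; 1700020I14Rik, Gm26899 and D130017N08Rik were named after their values were seen. The genes and all lists (snoRNA and microRNA hosts, general, p53, pluripotency and developmental lincRNAs, germ cell, somatic, endothelial and blood markers, p53 targets) were chosen with earlier results of these data known. No files or samples were left out. Libraries of the same number were checked for pairing and treated as unpaired.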

Additional observations from a re-analysis of the deposited data

Results flagged for a closer look

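In each group of 4 libraries the highest or lowest value was marked where its gap to the nearest other value, divided by the range, was above Dixon's limit. Of 70 sets searched (the named lincRNAs and their summed share, in each group) 9 were marked. For normally distributed values the limit marks about 1 in 20, or 3.5. Some lincRNAs were named by their p or after their values were seen, and normality was not tested. The number marked is therefore not a test against chance. High values were Gm13346 in Prmt5 KO 4 (61.3 CPM), Malat1, Pvt1 and D130017N08Rik in Prmt5 KO 1 (75.8, 23.8 and 29.9 CPM), Gm26776 and 9430098F02Rik in Prmt5 KO 2 (10.1 and 19.6 CPM), and 4930480K23Rik in Control 1 (23.7 CPM) and in Prmt5 KO 3 (5.80 CPM). The one low value was Gm26880 in Control 3 (2.74 CPM), one of the shallowest libraries.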

How the results depend on the processing

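Across 19 alternative fits the lincRNAs called at an adjusted p of 0.05 numbered 0 (edgeR, limma), except for 1 with DESeq2. At an unadjusted p under 0.05 they numbered 1 to 6. The count over all genes, 3 in the report, was 103 with DESeq2, 7 with no filter on low counts, 1 with limma voom, 1 with transcripts summed, 1 to 2 when leaving out 1 library, 1 without Prmt5 KO 1 and 4, and 0 when Control 2 and 3 were left out. In the labels the libraries share only a number, and whether they are paired is not known. Same-number correlations of deviations were 0.00226 to 0.0694, and 3 of 4 Control libraries correlated best with their own number. A fit with the replicate block called 1 gene and 0 lincRNAs. DESeq2 without each library in turn was added after seeing the data.

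The median log2 fold change of the lincRNAs ranged from 0.00 to 0.18. Of 32 named lincRNAs 20 kept their sign in every fit and 12 did not. Gm26717 turned to 0.001 with limma voom, 0.01 with no filter and 0.10 without Control 2 and 3. Without Control 2 and 3, Gm26762 turned to 0.16 and 2700038G22Rik to -0.03. Without Prmt5 KO 1 and 4, Gm26718 turned to 0.24, Mir9-3hg to -0.30, Malat1 to -0.15 and Gm13346 to -0.20. The replicate block turned 9430098F02Rik to -0.08. Leaving out 1 library gave ranges across 0 for Gm26717 (-0.12 to 0.03), 9430098F02Rik (-1.49 to 1.52), Gm17275 (-0.03 to 0.15), Gm16973 (-0.12 to 0.16), Malat1 (-0.26 to 0.63), Gm26882 (-0.30 to 0.07), Lncenc1 (-0.06 to 0.29) and Gm13346 (-0.26 to 1.64). The cause was not tested.

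The lincRNA share of counts was 0.128% and 0.131% (Control and Prmt5 KO) with transcripts summed and 0.277% and 0.267% without mitochondrial genes. A minimum total of 500 leaves 49 genes.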
